A study of Mus musculus and Rattus norvegicus with 4 samples.

Results

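The genes described here are 38 mouse genes of integrins, adhesion plaque proteins and actin linkers, taken from a list of names. The rule uses no measured value, but the list was drawn up with earlier results of these data known. Of these 38 genes, 14 had at least 1 MEF2A peak in C2C12 cells, among 21887 protein-coding genes in all, and 32 of the 2797 peaks of that library were assigned to them. C2C12 is an established mouse skeletal myoblast line, and the cells had spent 48 h in differentiation medium with 2% horse serum. MEF2A belongs to the myocyte enhancer factor 2 transcription factors, which regulate muscle genes. Its binding was mapped by ChIP-exo, in which an exonuclease trims the immunoprecipitated DNA towards the edges of the bound protein. The series held 4 libraries, MEF2A and normal rabbit IgG from C2C12 cells and from primary rat cardiomyocytes, with 1 library per group. Only the C2C12 MEF2A peak list was used here, so no value has a replicate error, no comparison was tested, and every statement describes this list. Read depth is unknown because the list holds peak positions and scores but no read counts.

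Integrins are heterodimers of an alpha and a beta subunit that span the plasma membrane and bind extracellular matrix. Talins and kindlins bind the beta tail and activate the receptor, and plaque proteins such as vinculin, the complex of integrin-linked kinase with PINCH and parvin, and LIM domain proteins connect it to actin. In skeletal muscle much of this machinery sits in costameres, the lateral attachments that couple the sarcomere to the membrane and matrix.

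A peak was assigned to the protein-coding gene whose span, from the first to the last annotated base, was nearest and at most 100 kb away, and a peak inside a span has distance 0. By this rule 14 of the 38 genes (36.8%) had a peak, whereas 7.73% of all protein-coding genes did. Genes with long spans or distant neighbours collect more peaks, and the median territory, meaning the stretch in which a peak would fall to that gene, was 124 kb for the 38 genes and 45.8 kb for all genes. When all genes were divided into 10 equal classes of territory length, the classes of these 38 genes had a mean share of 14.0%, which corresponds to 5.31 genes. The observed 14 genes were 2.63 times that number. This ratio describes how the list compares with genes of the same territory classes. Territories still differ within a class, and the longest class ran from 201 to 2513 kb. It was not tested, and the list was not chosen independently of these data.

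In the class with the longest territories, 7 of 12 adhesion genes (58.3%) and 26.6% of all 2189 genes had a peak. Territories of these 12 genes were 253 to 799 kb with a peak and 215 to 319 kb without. Length was therefore not matched within this class. Across the shorter classes, 7 of 26 adhesion genes (26.9%) and 5.62% of all genes had one. The 5.62% pools these classes and is not matched on territory. Of the 26 genes, 6 were in the class from 91.4 to 131 kb (share 11.7%) and 5 in that from 131 to 201 kb (14.2%). The share was thus above that of all genes both in the longest class and in the shorter classes taken as 1 group, but not in every class. None of the 6 adhesion genes in the class from 91.4 to 131 kb had a peak, against 11.7% of the class. Small spans with a peak included Fhl3, whose territory was 16.9 kb, and Itga7, whose territory was 29.8 kb.

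**Figure D1:**
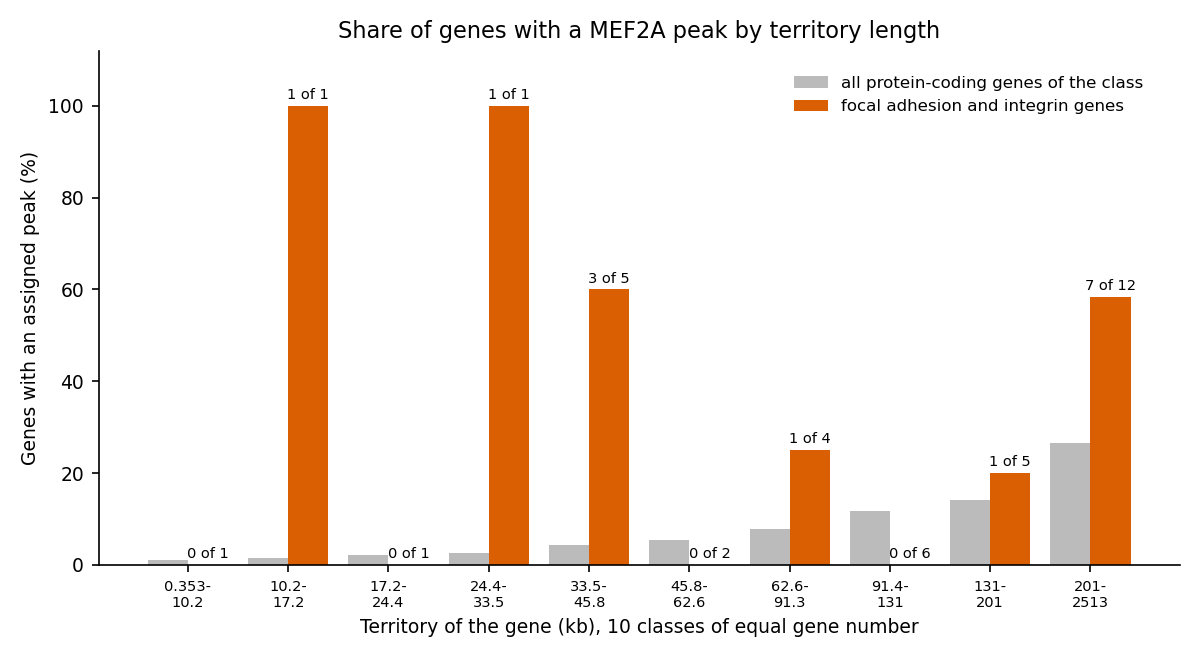
Percentage of genes with an assigned MEF2A peak (vertical axis) in 10 classes of territory length in kb (horizontal axis), for all protein-coding genes (grey) and for the 38 adhesion genes (orange, with the number of genes above each bar). The orange bar is above the grey one in 6 classes and at 0 in the other 4, and the counts behind the orange bars are small.

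By role, the groups with the most genes given a peak were the talin, vinculin, kindlin and tensin group, at 4 of 6, and the LIM domain proteins, at 3 of 5. The shares of their territory classes correspond to 1.13 and 0.561 genes. The first group fell to 3 of 6, with Tln2 lost, at limits of 10 or 50 kb and with all annotated genes. Actin crosslinkers gave 2 of 4 genes (0.529 at the share of their classes), signalling and scaffold proteins 2 of 6 (0.974), alpha integrins 2 of 7 (0.915) and linkers to intermediate filaments 1 of 2 (0.195). No beta integrin of 3 and no gene of 5 from the complex of integrin-linked kinase, PINCH and parvin had an assigned peak. Their class shares correspond to only 0.461 and 0.554 genes, so a count of 0 is near the background in both. Each gene was counted in 1 role only. Lims1, Lims2 and Pxn also encode proteins with LIM domains but were counted under other roles, and none had an assigned peak. These groups are small, and differences between them were not tested.

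**Figure D2:**
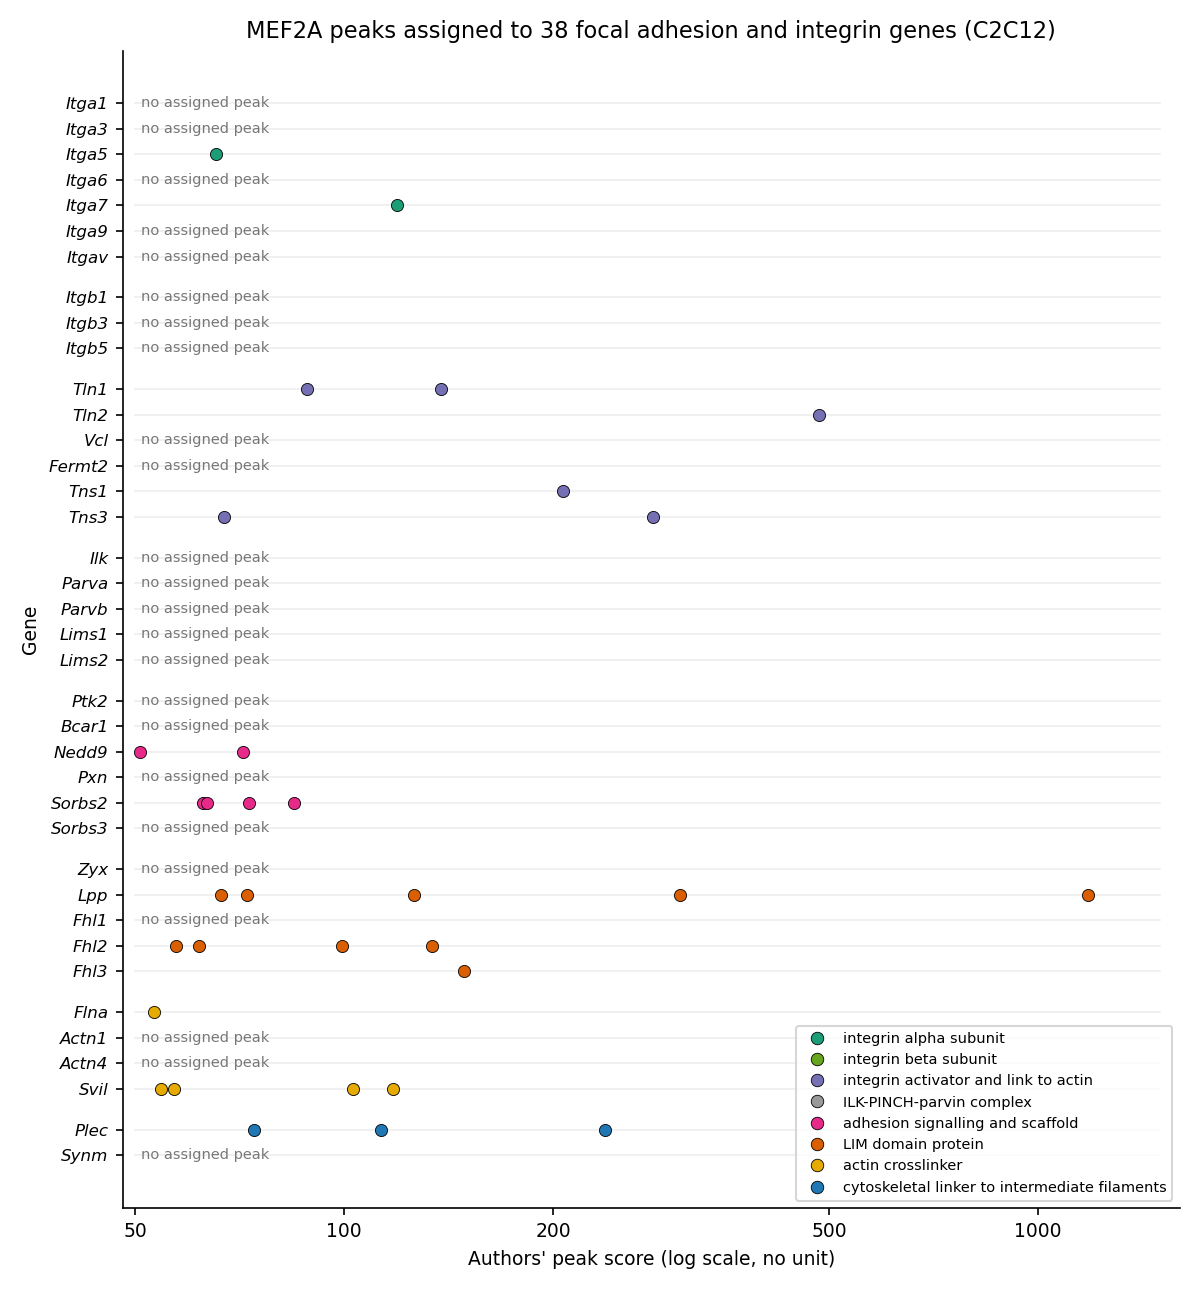
The authors' score (horizontal axis, log scale, no unit) of each of the 32 peaks, by gene (vertical axis) and coloured by role, with genes that have none marked. Lpp holds the highest point at 1180, and Tln2 follows at 484.

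The authors' score is higher for stronger peaks and starts just above 50 in this list. Scores of the 32 peaks ran from 50.8 to 1180 with a median of 86.5, whereas all peaks assigned to any gene had a median of 77.7. Scores of 100 or more were held by 14 of the 32 peaks (43.8%), against 37.3% of all assigned peaks, and scores of 200 or more by 6 (18.8%), against 15.6%. A peak of 100 or more was assigned to 10 of the 38 genes (26.3%) and to 3.47% of all genes, and a peak of 200 or more to 5 (13.2%) and to 1.53% of all genes. Those 5 were Lpp, Tln2, Tns3, Plec and Tns1, and all but Plec were in the class with the longest territories. These shares of all genes were not matched on territory. More of the 32 peaks thus scored under 100 than over it, as in the list as a whole. Their median width was 164 bp (78 to 558 bp), against 144 bp for all peaks.

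Inside a gene span lay 21 of the 32 peaks (65.6%), and the share over all assigned peaks was 57.1%. The other 11 lay between 1.84 kb and 76.2 kb from the span. More than 1 peak was assigned to 8 of the 14 genes (57.1%), against 25.3% of all genes with a peak. Long spans make several peaks in 1 gene more likely, and these shares were not matched on territory.

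**Figure D3:**
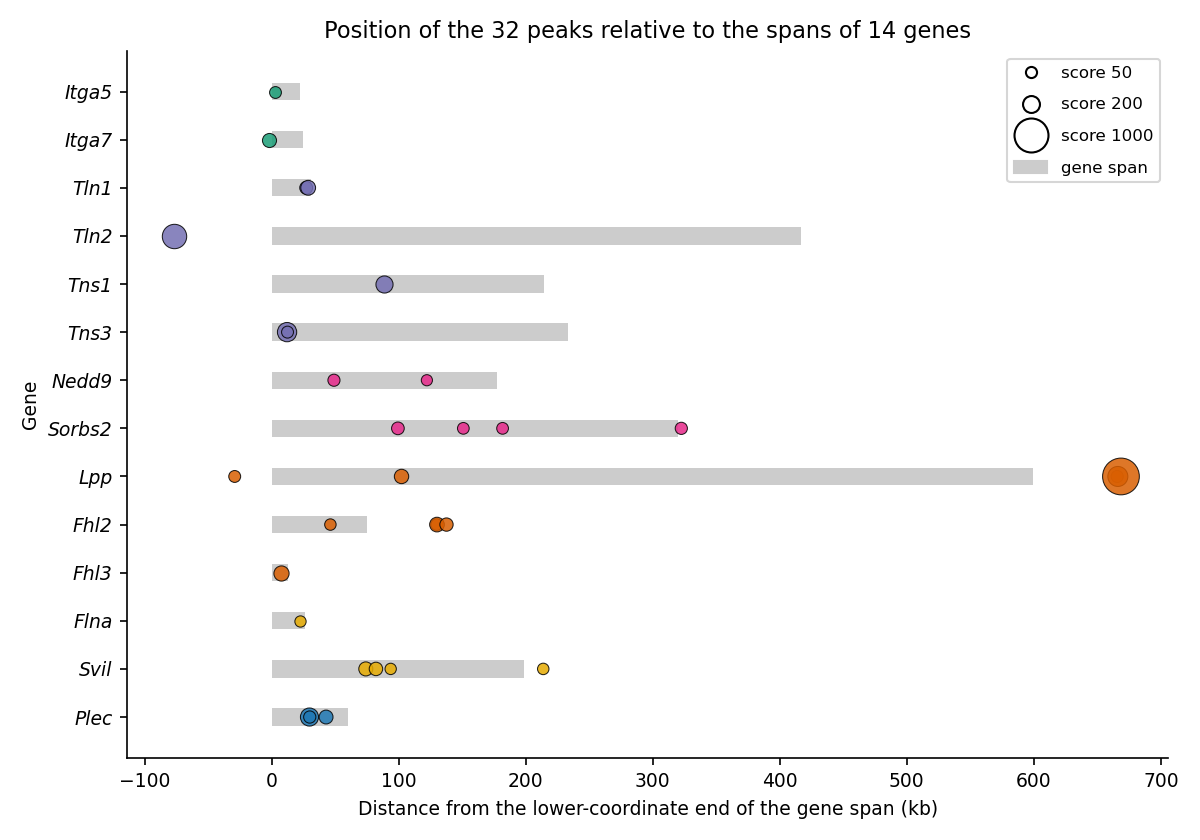
Position of the 32 peaks (circles, area growing with the score, colours as for the roles) relative to the spans of the 14 genes (grey bars), in kb from the lower-coordinate end of each span. The large circle of Lpp lies 69.0 kb beyond its span, and the single circle of Tln2 lies 76.2 kb before its span.

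Among the integrin receptors, the peaks were few and of low to middle score. Itga7, encoding the alpha subunit of the main laminin-binding integrin of skeletal muscle (chromosome 10, 128933421 to 128958286, mm10), had 1 peak at 128931371 to 128931581, 1.84 kb below its span. Its score was 119 (rank 855 of 2797), and the next protein-coding span, Bloc1s1, was 7.85 kb from the peak. Itga5, the alpha subunit of the fibronectin receptor (chromosome 15, 103344286 to 103366791), contained 1 peak at 103346939 to 103347053. That peak scored 65.2 (rank 1758) and lay 19.7 kb downstream of the start site. A stronger peak, with a score of 273, lay within 100 kb of Itga5 but nearer to Gtsf1.

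Integrin genes without an assigned peak were Itga1, Itga3, Itga6, Itga9, Itgav, Itgb1, Itgb3 and Itgb5. For 3 of them a peak lay within 100 kb but nearer to another gene. Itgb3, a beta subunit that pairs with the alpha v subunit, was 46.6 kb from the peak of score 738 that was assigned to Myl4, a myosin light chain gene. Itgav, the alpha v subunit itself, was 45.5 kb from a peak of 77.8 assigned to Zc3h15. Itgb5 had 3 peaks within 100 kb, assigned to Kalrn or Heg1, with scores of up to 63.9. The nearest of these, of score 53.9, was 28.6 kb away and assigned to Kalrn. Itgb1, the beta subunit shared by many muscle integrins, had its nearest peak 462 kb away (score 55.8). Itga3 was just outside the limit, 107 kb from a peak of 54.3 assigned to Col1a1.

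Genes that link integrins to actin held some of the stronger peaks. Tln2, the talin isoform that is prominent in striated muscle (chromosome 9, 67217085 to 67634045), was assigned 1 peak at 67140382 to 67140892, with a score of 484 (rank 121). This peak was 76.2 kb below the span of Tln2 and 90.7 kb from Tpm1, a tropomyosin gene on its other side, so Tln2 was nearer by a small margin and was the gene with an assigned peak closest to the distance limit. Tln1, the widely expressed talin (chromosome 4, 43531513 to 43562583), contained 2 peaks, at 43558552 to 43558873 and 43560071 to 43560496. They scored 88.4 and 138 and lay 3.71 and 2.09 kb downstream of the start site. The assigned peaks thus lay close to the start of Tln1 and far outside Tln2. The assignment to Tln2 was lost with a limit of 10 or 50 kb and with all annotated genes. Tpm1 is on the minus strand, so the peak lay on its upstream side. A stronger peak, with a score of 315, lay within 100 kb of Tln1 but nearer to Tpm2.

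Tensins bind integrin tails and actin, and the tensin genes described here, Tns1 and Tns3, each contained a peak far from the annotated start. Tns2 and Tns4 belong to the wider adhesion list described below. Tns4 contained 1 peak, with a score of 62.2, but had no listed start site. Tns2 had no assigned peak, and its nearest was 723 kb away. Tns1 (chromosome 1, 73910232 to 74124548) held 1 peak at 73998618 to 73998822, with a score of 207 (rank 409), 126 kb downstream of the start site. Tns3 (chromosome 11, 8431652 to 8664758) held 2 peaks, at 8443604 to 8444012 and 8444104 to 8444238, which were 91 bp apart and scored 279 (rank 279) and 67.1. They lay 221 and 220.3 kb downstream of the start site, near the other end of the span. Vcl, encoding vinculin, and Fermt2, encoding kindlin-2, had no peak within 100 kb, with the nearest at 227 kb and 297 kb.

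Several LIM domain proteins of the adhesion plaque shuttle between adhesions and the nucleus, and this group held the strongest peak of the list. Lpp (chromosome 16, 24393350 to 24992578), a relative of zyxin, was assigned 5 peaks. The peak at 25061587 to 25062144 scored 1180 (rank 26 of 2797) and was 558 bp wide, the widest of the 32. It lay 69.0 kb beyond the end of the span, and peaks of 305 and 72.3 lay next to it at 66.7 and 66.2 kb. With a limit of 50 kb these 3 peaks were no longer assigned to Lpp, and its highest score was then 126. The next protein-coding gene on that side, Tprg, was 225 kb from the strongest peak. The remaining Lpp peaks were 1 inside the span (score 126, 102 kb downstream of the first start site) and 1 upstream of it (score 66.5, 29.0 kb). The strong Lpp signal was therefore outside the gene, and the peak inside it was of middle rank (797).

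Fhl2 and Fhl3 encode four-and-a-half LIM domain proteins, which bind integrins, actin-associated proteins and transcription factors. Fhl2 (chromosome 1, 43123071 to 43198343) was assigned 4 peaks, of which 1 lay inside the span (score 57.1). The other 3 lay upstream, with scores of 61.7 and 134 for a pair 18 bp apart at 54.6 and 54.8 kb from the span and of 99.3 at 62.3 kb. No other protein-coding span was within 137 kb of these upstream peaks. Fhl3 (chromosome 4, 124695964 to 124708611) contained 1 peak at 124703452 to 124703629 with a score of 149 (rank 636), 2.75 kb downstream of the start site. Fhl1, the family member that is abundant in skeletal muscle, lay on chromosome X with its nearest peak 3935 kb away, the greatest distance among the 38 genes. Zyx, encoding zyxin, had a peak of score 274 at 23.8 kb that was nearer to Epha1.

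Signalling and scaffold genes had several weak peaks. Sorbs2, encoding a scaffold protein of Z-discs and adhesions (chromosome 8, 45507788 to 45827906), was assigned 4 peaks, 3 inside the span with scores of 84.6, 62.5 and 63.3 and 1 at 2.29 kb beyond it with 73.0. Nedd9, an adaptor of the p130Cas family that binds focal adhesion kinase (chromosome 13, 41309916 to 41487362), contained 2 peaks, with scores of 71.4 (rank 1562) and 50.8 (rank 2762). No peak of either gene reached a score of 100. Ptk2, encoding focal adhesion kinase, was 49.3 kb from a peak of 161 assigned to Ago2, and Bcar1, encoding p130Cas, was 14.8 kb from a peak of 114 assigned to Ctrb1. Pxn, encoding paxillin, and Sorbs3 had their nearest peaks 1319 and 2079 kb away.

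Start sites were taken from the RefSeq promoter table, which may not list every start of a gene. For Nedd9 it lists 1, and the peak of score 50.8 lay inside the span but 73.1 kb upstream of that start. Of the 32 peaks, 23 belonged to genes with a listed start. Only the Nedd9 peak of score 71.4 covered a listed start site of its own gene. Its sequence before that start is shown for this reason, together with that of Palld, an actin-bundling gene from the wider adhesion list whose peak (chromosome 8, 61902533 to 61902963, score 396, rank 172) covered a start site as well. Each line gives the 250 bases before the start site, 5′ to 3′ on the minus strand (RefSeq, GRCm38.p6), with capitals for the bases under the peak.
Nedd9, chr13:41359002-41359251: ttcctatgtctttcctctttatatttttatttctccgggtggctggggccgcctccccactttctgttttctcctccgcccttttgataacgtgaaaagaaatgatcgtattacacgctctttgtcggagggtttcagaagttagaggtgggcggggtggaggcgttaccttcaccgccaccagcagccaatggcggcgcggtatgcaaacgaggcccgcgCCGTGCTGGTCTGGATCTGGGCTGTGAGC
Palld, chr8:61902708-61902957: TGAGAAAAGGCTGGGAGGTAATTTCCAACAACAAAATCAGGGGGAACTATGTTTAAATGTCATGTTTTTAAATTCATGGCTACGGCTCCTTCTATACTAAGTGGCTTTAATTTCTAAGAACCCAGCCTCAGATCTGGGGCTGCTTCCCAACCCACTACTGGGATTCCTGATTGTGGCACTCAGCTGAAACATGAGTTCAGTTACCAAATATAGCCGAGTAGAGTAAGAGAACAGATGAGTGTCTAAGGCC
The Nedd9 peak at 41358934 to 41359030 covered 29 of these bases and continued past the start, whereas the Palld peak covered all 250. Neither 300-base window, which also takes in 50 bases from the start site on, held the MEF2 consensus, a palindromic A/T-rich motif of 10 letters. With the end bases of the motif left free the Nedd9 window held 1 match, outside the peak, and the Palld window none.

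The MEF2 consensus was then sought in the 300-base promoter windows of all members, on both strands. Windows were present for 27 of the 38 genes, 37 windows in all, and none was found for Itga6, Itga7, Itgb3, Tln2, Parva, Lims2, Ptk2, Pxn, Sorbs3, Svil and Plec. The consensus was in 3 of the 37 windows (8.11%), those of Fhl2, Bcar1 and Lims1, against 3.19% of all 32851 windows and 2.74% of the 21263 windows of protein-coding genes. In the 92 windows of the wider adhesion list it occurred in 1, that of Itga10. Each match among the 38 genes is shown with 10 flanking bases on either side, 5′ to 3′ on the strand of the gene, with the match in capitals, to set these letters beside the peaks.
Fhl2, minus strand, chr1:43196773-43196802: tggacatgccTTATTTATAActctgctgac
Bcar1, minus strand, chr8:111744016-111744045: atgggattgtCTAATAATAAgtctggaggt
Lims1, plus strand, chr10:58351875-58351904: tttcattggcTTAAATATAGttcaaagcag
The match in Fhl2 began 31 bases before a start site, that in Lims1 78 bases and that in Bcar1 186 bases before one. None lay under a peak, and the nearest peaks were 27.3, 721 and 48.3 kb away. Of all 32851 windows 99 (0.301%) overlapped a peak, and of the 37 windows here 1 did, that of Nedd9.

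Actin crosslinkers and linkers to intermediate filaments included 2 genes with several peaks inside the span. Svil, encoding supervillin (chromosome 18, 4920467 to 5119293), had 3 peaks inside the span with scores of 118, 103 and 54.4 and 1 at 14.9 kb with 56.9. Plec, encoding plectin, which ties intermediate filaments to adhesions and Z-discs (chromosome 15, 76170974 to 76231378), contained 3 peaks with scores of 238 (rank 341), 74.1 and 113. The first 2 of these were 10 bp apart, at 76200624 to 76200924 and 76200935 to 76201033. Flna, encoding filamin A, contained 1 weak peak of 78 bp (score 53.2, rank 2649), 0.564 kb downstream of a start site. Actn1 and Actn4, the non-muscle alpha-actinins, had none, with the nearest at 114 and 271 kb, and Synm, encoding synemin, was 25.7 kb from a peak of 54.1 assigned to Ttc23.

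The complex of integrin-linked kinase, PINCH and parvin was without assigned peaks. Ilk itself has a short span of 6.34 kb and the nearest peak was 3794 kb away. The PINCH genes Lims1 and Lims2 were 648 and 422 kb from a peak, and Parvb 399 kb. Parva, encoding alpha-parvin, differed from these, since 5 peaks lay within 100 kb of its span, the strongest of 201, and all were nearer to Micalcl, Mical2 or Tead1. In all, 8 of the 24 genes without an assigned peak had such a peak within 100 kb, and 16 had none. A peak within 100 kb, whichever gene was nearest, was thus present for 22 of the 38 genes (57.9%). The share of all genes was 22.0%, not matched on territory. For the 16 genes with none the nearest peak was between 107 and 3935 kb away (median 442 kb). Weaker binding at these genes, under the score at which the list starts, would not be seen.

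**Figure D4:**
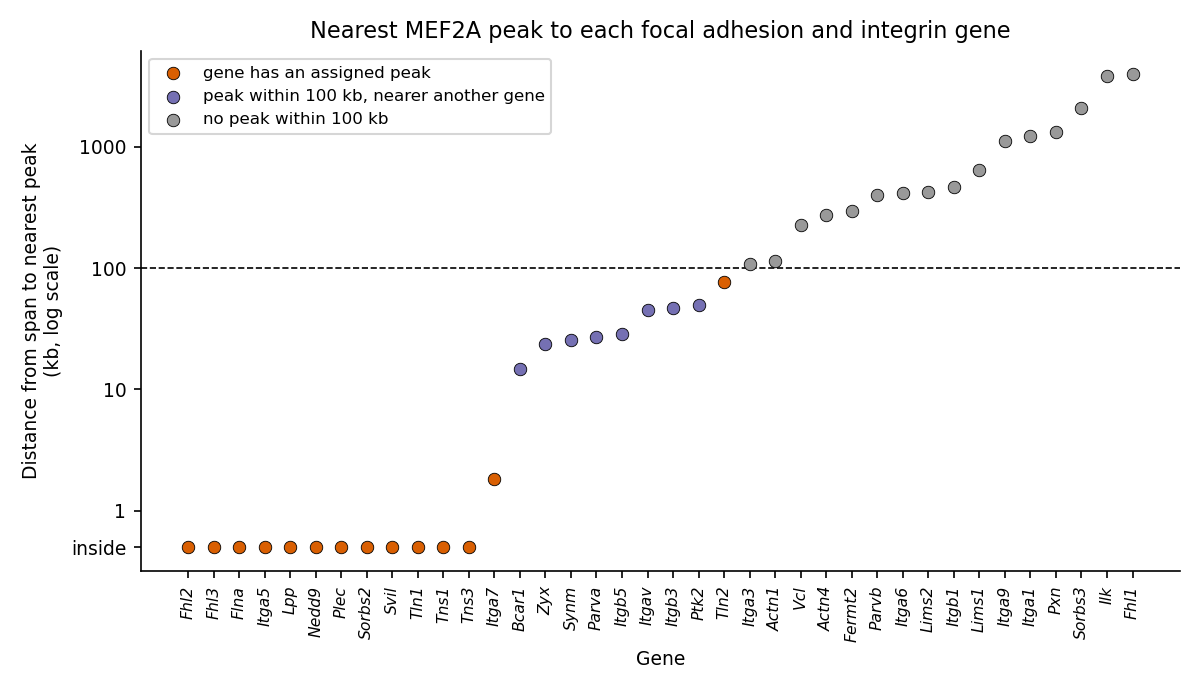
Distance in kb (vertical axis, log scale, with "inside" for peaks within the span) from each of the 38 gene spans to its nearest MEF2A peak, with genes in order of distance. The 12 genes at the left contain a peak, 8 genes have one within 100 kb that is nearer to another gene, and 16 lie above the dashed line at 100 kb.

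A wider list of 90 other adhesion genes, drawn up by function, was treated in the same way. In it 26 genes (28.9%) had a peak, against 7.73% of all genes, and this was 2.64 times the 9.85 genes given by the mean share of their territory classes (10.9%). That ratio was not tested either, and this list too was drawn up with earlier results known. Signalling and scaffold genes gave 12 of 29 (3.64 at the share of their classes) and matrix receptors and partners 4 of 10 (0.954). Alpha integrins gave 1 of 11 (1.01), beta integrins 1 of 5 (0.527) and LIM domain proteins 1 of 11 (0.934), so these counts were near the background. Integrin activators gave 2 of 8 (0.690) and actin crosslinkers 2 of 9 (1.13). Linkers to intermediate filaments gave 2 of 3 (0.587) and partners of the integrin-linked kinase complex 1 of 4 (0.385). Over both lists 4 of 26 integrin subunit genes (15.4%) had a peak, close to the 11.2% of their territory classes. Genes given the LIM domain role over both lists gave 4 of 16 (25.0%), against 9.35% in their classes, with 3 of the 4 among the 38 genes. That count leaves out LIM domain genes placed under other roles. Among these, Lpxn had assigned peaks, whereas Tgfb1i1, Lims1, Lims2 and Pxn had none.

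The highest score in the wider list was 1020 (rank 31), at 8.88 kb from Dlc1, a GTPase-activating protein of focal adhesions. Kank1, a talin-binding regulator at the rim of adhesions, contained a peak of 669. Sdc2, encoding the matrix co-receptor syndecan-2, contained one of 502, and Palld, encoding palladin, had a peak of 493 besides that at its start. These genes were in the upper part of the peak list, above all 38 adhesion genes except Lpp. Dock1, an exchange factor for Rac, was 36.7 kb from a peak of 431, and Rapgef1, an exchange factor for Rap1, contained one of 279.7. Rsu1, a partner of PINCH, contained a peak of 244, whereas the complex it binds had none. Itga8 was 57.1 kb from a peak of 197 and contained one of 95.4. Git1 was 0.943 kb from one of 149, and Diaph1 contained one of 114.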

How the data were processed

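MEF2A ChIP-exo in C2C12 cells was analysed from 1 deposited peak list, with samples grouped by title. Per the submitters' processing notes, the tools were MACS 1.4.2, BWA 0.5.9, CASAVA 1.7.0, SAMtools and Picard, and the build mm10, with no settings. The authors deposited a score per peak on an unstated scale, used only to rank and filter peaks within the list. Peaks were called on this single library, and use of the IgG library as control is not stated. The IgG and rat libraries were not analysed here.

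Coordinates are printed 1-based. Peaks were assigned to the nearest of 21887 protein-coding spans (RefSeq, GRCm38.p6, the assembly behind mm10) within 100 kb, and a peak inside several spans counted for each. All 38 members, and all 90 other adhesion genes, matched by symbol. A territory is the span plus each flank up to the midpoint to the neighbouring span, at most 100 kb. The members and lists were chosen with earlier results of these data known. All members are named, with up to 10 other adhesion genes by highest score and a few more where a family, a role or a motif match called for them. Start sites and promoter windows came from the RefSeq promoter table (250 bases before and 50 from the start). Distances to a start site are to the starts listed there, which may not be all starts of a gene. The assignment was checked on simulated peaks. No test was run, since each group has 1 library. Python 3.11.15, numpy 2.4.6, pandas 2.3.3 and matplotlib 3.10.9 were used.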

Additional observations from a re-analysis of the deposited data

How the results depend on the processing

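The count of 14 adhesion genes with a peak stayed between 13 and 14 with limits of 10 or 50 kb, merged close peaks, assignment to the nearest span end, all annotated genes, or peaks over 2 kb wide left out. The share of all genes was 5.75% at 10 kb, 7.13% at 50 kb, 7.42% by span end and 4.36% with all annotated genes. In the 10 kb, 50 kb and all-annotated settings Tln2 was lost, the top score of Lpp fell from 1180 to 126 and Fhl2 went from 4 peaks to 1, so the highest scores of the list rest on the 100 kb limit and on leaving out noncoding genes. At a score of 100 or more, 10 genes (26.3%) and 14 peaks were left, against 3.47% of all genes, with 11 of the 90 other adhesion genes. At 200 or more, 5 genes (13.2%), 6 peaks and 7 other adhesion genes were left, against 1.53% of all genes. These falls follow from fewer peaks entering. Counting every span within 100 kb gave 22 genes (57.9%), 50 peaks and 41 other adhesion genes, against 22.0% of all genes. None of the shares of all genes in these settings was matched on territory. With the end bases of the consensus left free, 6 of the 37 windows matched (16.2%), that of Nedd9 among them, against 9.23% of all windows and 3 of 92 in the wider list. Over the 14 genes with a peak and 9 settings, 35 of 126 peak counts moved by more than 1.5 times. Weak peaks could not be checked in a second library. No paired analysis was possible because there was a single library per group.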

Other observations

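Several of the peaks far from an adhesion gene lay in or beside a long noncoding RNA gene. When all annotated genes were used, 9 of the 32 peaks passed to another gene. That set held 49943 genes, against 21887 protein-coding genes. The share of all assigned peaks that passed in this way was not worked out, so the 9 have no background beside them. The strongest Lpp peak (score 1180) lay inside A230028O05Rik, and its neighbours of 305 and 72.3 were 150 and 687 bp from that gene. The 3 peaks upstream of Fhl2 (scores 61.7, 134 and 99.3) lay inside Gm29040, and the Tln2 peak (484) inside Gm19299. The Svil peak of 56.9 was 2239 bp from LOC115486421, and the Lpp peak of 66.5 was 5439 bp from the pseudogene Gm41434. These noncoding genes were picked out once their values were known, and without expression data it is unknown which are transcribed in C2C12 cells.

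In the wider adhesion list, Nexn, encoding the actin-binding protein nexilin, had no assigned peak, but a peak of score 1529 lay within 100 kb of its span and was nearer to Gipc2. Vasp, encoding an actin polymerase of adhesions, had its nearest peak (71.8) at 29.4 kb, assigned to Fosb. Nexn and Vasp were picked in the same way.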
